A study of Homo sapiens with 4 samples.

Results

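Annexins are proteins that bind phospholipid membranes, most of them in a calcium-dependent way. Annexin transcripts were followed in Caco-2, a long-established line from a human colorectal adenocarcinoma whose confluent cells come to resemble absorptive enterocytes. The 10 annexin genes ANXA1, ANXA2, ANXA3, ANXA4, ANXA5, ANXA6, ANXA7, ANXA9, ANXA10 and ANXA13 were taken by symbol from 18417 genes whose probe sets name 1 gene, and each had 1 such probe set. Annexins outside this list were not looked at, and counts of annexins below cover the listed genes only. The family was chosen because ANXA1 was low in cholate, so its values for cholate against vehicle are a description and were not tested.

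The 4 arrays were Transwell with cholate, Transwell with vehicle, plate with cholate and plate with vehicle, and each held RNA pooled from 3 samples. Transwell stands for a collagen-coated porous insert and plate for a regular 6-well plate. Cholate, a primary bile acid used as its sodium salt, was given at 2 mM for 3 h in the apical compartment of the insert or in the well, dissolved in a buffered salt solution lacking calcium. The sources used here do not give whether vehicle cells received that calcium-free solution too, so an effect of the bile acid and one of the solution cannot be told apart. The labels state 21 days of differentiation throughout, whereas the growth protocol states 14 days for plates and 14 to 21 for inserts. The well diameter was 6.5 mm for inserts and 34.8 mm for plates. Differences between supports therefore cannot be told apart from those of coating, well size or, under the protocol, culture time. With 1 array per condition there was no replicate check, and the number of arrays limits the precision of every value below.

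Annexins share a conserved core, which in most members binds negatively charged phospholipids when calcium rises. Their variable N-terminal tail binds partners such as S100 proteins. Through these 2 parts annexins take part in vesicle traffic, in linking membranes to actin and in resealing torn plasma membranes. In intestinal epithelium, ANXA2 and ANXA13 are known for transport to the apical surface, and secreted ANXA1 for promoting mucosal repair through formyl peptide receptors.

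Promoter windows are shown for ANXA1, the member with the lowest cholate values relative to vehicle, and ANXA9, the member with the largest mean difference between supports. They run from 250 bases before the gene start to 50 after it, 5′ to 3′ on the gene's strand, and come from RefSeq with build GRCh38.p14. Capitals mark matches to the motifs searched on both strands, which were TATAAA (a core promoter box), CCAAT (known for binding NF-Y), GGGCGG (SP1), TGANTCA (AP-1), GCGNGGGCG (EGR) and GGAATG (TEAD).
ANXA1, chr9:73151615-73151914, plus strand: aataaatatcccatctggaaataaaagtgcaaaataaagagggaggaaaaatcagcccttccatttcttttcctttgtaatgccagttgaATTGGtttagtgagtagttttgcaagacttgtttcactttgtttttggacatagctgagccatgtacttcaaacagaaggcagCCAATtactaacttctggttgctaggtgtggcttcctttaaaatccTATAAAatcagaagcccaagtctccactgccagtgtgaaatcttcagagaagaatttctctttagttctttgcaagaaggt
ANXA9, chr1:150982042-150982341, plus strand: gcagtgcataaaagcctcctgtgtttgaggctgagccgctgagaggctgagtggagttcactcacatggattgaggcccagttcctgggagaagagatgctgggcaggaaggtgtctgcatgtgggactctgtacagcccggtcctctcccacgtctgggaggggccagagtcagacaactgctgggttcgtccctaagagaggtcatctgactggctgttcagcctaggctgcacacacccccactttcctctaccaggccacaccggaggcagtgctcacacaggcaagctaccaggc
The ANXA1 window held TATAAA with its first base at -31 from the gene start, CCAAT at -77 and, on the opposite strand, CCAAT at -160. These matches do not overlap. Of 35116 RefSeq promoter windows of this length, 11.5% held TATAAA and 34.6% held CCAAT. None of the 6 motifs was matched in the ANXA9 window. The GC content was 37.7% for ANXA1 and 59% for ANXA9, against a median of 58.7% over all windows. The annexins had 11 windows, which covered 9 of the 10 genes. Matches in annexins are given per gene, whereas the shares of all windows are per window. Besides ANXA1, TATAAA was in the windows of ANXA2 and ANXA10, and CCAAT in those of ANXA6 and ANXA7. GGGCGG was in those of ANXA2, ANXA4, ANXA5, ANXA6 and ANXA7 (45% of all windows), and TGANTCA in that of ANXA2 (7.71%). GCGNGGGCG (9.43% of all windows) and GGAATG (14%) were in 0 of the annexin windows.

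Values are log2 intensities after RMA, which removes background signal, brings the arrays to a common distribution and merges the probes of each probe set into 1 value. A mean of 4.84 over the arrays, the 40th percentile of all 33297 probe sets, served as a floor, and values under it lie near background. The floor left 12900 genes, and 9 of the 10 annexins. The arrays correlated at r of 0.977 to 0.993 over 19978 probe sets above the floor. The 12 measured markers of intestinal epithelium all lay above the floor, with array means of 10.33 to 10.38. Of the fibroblast markers 4 of 7 lay above it, of the leukocyte markers 2 of 5 and of the endothelial markers 1 of 5. DCN and LUM (fibroblast), PTPRC and CD3E (leukocyte) and VWF and CDH5 (endothelium) were under the floor on all 4 arrays, whereas COL1A1 (7.57 to 8.15), CD68 (8.71 to 9.45), CD14 (8.39 to 8.79) and PECAM1 (5.58 to 6.27) of the same lists lay above it on all 4. The array means were 4.79 to 4.93 for the fibroblast, 5.66 to 5.80 for the leukocyte and 4.20 to 4.36 for the endothelial list. Single markers moved more than these means. Of the epithelial markers, CDX2 read 9.48 on Transwell and 8.92 on the plate in cholate, and 9.68 on Transwell and 8.68 on the plate in vehicle, and KRT20 spanned 5.59 to 6.42. CDX2, KRT20 and PECAM1 were higher on Transwell than on the plate in both treatments, and CD68 and COL1A1 lower, and their part in the annexin values was not tested. Fewer cells with a transcript and less of it per cell cannot be told apart in such pools.

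ANXA1 encodes the glucocorticoid-inducible annexin also known as lipocortin. On Transwell it read 6.32 log2 in cholate, against 7.33 in vehicle, and on the plate 5.71 in cholate, against 7.49 in vehicle. Both cholate values lay below both vehicle values, the plate cholate array was the lowest, and all 4 were above the floor. The difference was -1.01 log2 on Transwell (2.02-fold lower) and -1.79 on the plate (3.45-fold lower). In each pair of arrays, 0.1% of the 12900 genes had a more negative difference.

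ANXA6, an annexin with a duplicated core that acts in endosomal cholesterol transport, was next in size. It read 8.17 in cholate and 8.32 in vehicle on Transwell, and 8.35 in cholate and 9.02 in vehicle on the plate. The plate vehicle array stood above the other 3, which spanned 8.17 to 8.35. The cholate difference was therefore -0.67 log2 on the plate (1.59-fold lower) and -0.15 on Transwell, and a high plate vehicle pool cannot be told apart from a response limited to the plate.

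**Figure D1:**
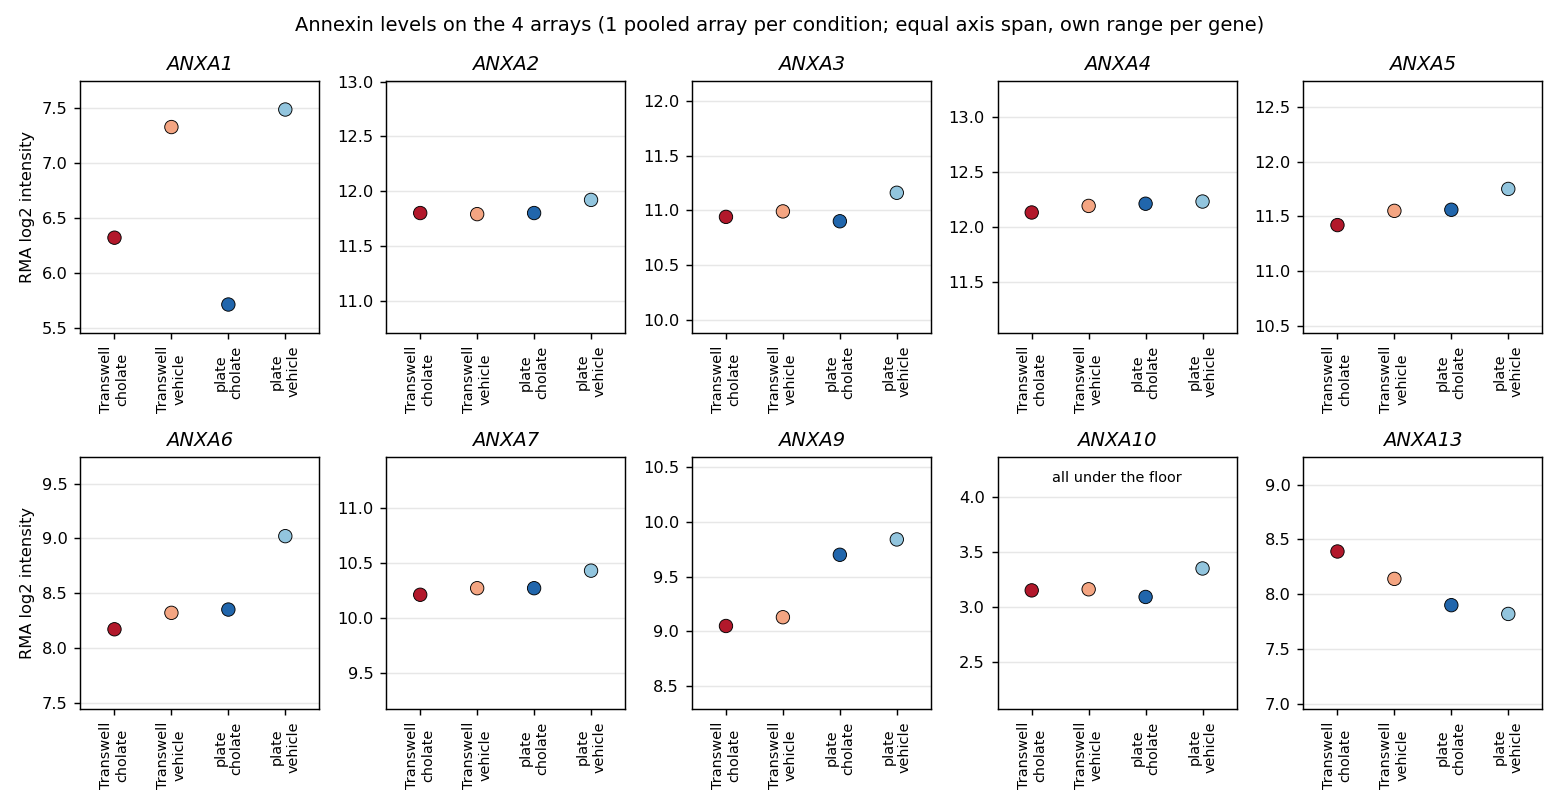
RMA log2 intensity of each annexin on the 4 arrays, 1 point per pooled array, with Transwell to the left of plate and cholate to the left of vehicle. Each panel has its own range but the same span. ANXA1 is lowest on the cholate arrays (6.32 and 5.71), ANXA6 is highest in plate vehicle (9.02), ANXA9 is lower on Transwell (9.05 and 9.13), and ANXA10 is under the floor of 4.84 throughout.

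The other members above the floor differed less between cholate and vehicle. ANXA2, which pairs with S100A10 and binds actin and plasminogen, read 11.80 in cholate and 11.79 in vehicle on Transwell, and 11.80 in cholate and 11.92 in vehicle on the plate. ANXA3, an annexin linked to phospholipase inhibition, read 10.94 and 10.99 on Transwell and 10.90 and 11.16 on the plate, cholate before vehicle. ANXA4, which is enriched at epithelial membranes, read 12.13 and 12.19 on Transwell and 12.21 and 12.23 on the plate in the same order. The largest cholate difference among these 3 was -0.26 log2, for ANXA3 on the plate.

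ANXA5, the phosphatidylserine binder used to stain dying cells, read 11.42 in cholate and 11.55 in vehicle on Transwell, and 11.56 in cholate and 11.75 in vehicle on the plate. ANXA7, also called synexin, read 10.21 and 10.27 on Transwell and 10.27 and 10.43 on the plate, cholate before vehicle. For both genes the difference was between -0.06 and -0.19 log2, inside the central 95% of genes, which ran from -0.37 to 0.33 on Transwell and from -0.57 to 0.45 on the plate. ANXA9, whose calcium-binding sites have diverged from those of its relatives, read 9.05 and 9.13 on Transwell and 9.70 and 9.84 on the plate in that order. Its cholate differences of -0.08 and -0.15 lay in the same central range.

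ANXA13, the annexin characteristic of intestinal epithelium, was the member with values above 0 on both supports. It read 8.39 in cholate and 8.14 in vehicle on Transwell, and 7.90 in cholate and 7.82 in vehicle on the plate, differences of 0.25 and 0.08 log2. ANXA10, known from gastric epithelium, read 3.15 in cholate and 3.16 in vehicle on Transwell and 3.09 in cholate and 3.35 in vehicle on the plate. All 4 values were under the floor, so no fold is given.

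At least 1.5-fold lower in cholate were 2 of 9 annexins on the plate (ANXA1 and ANXA6), where 2.35% of the 12900 genes were, and 1 on Transwell (ANXA1), where 0.736% were. ANXA1 was the single annexin past that fold on both supports, as were 0.504% of all genes, and 0 annexins were higher on both, as were 0.178% of all genes. Values below 0 on both supports were found for 7 of 9 annexins (6 with cyclic loess, 8 with median centring) and 34.7% of all genes. Since ANXA1 was chosen on this contrast, nothing is read from these counts. The median over the 9 annexins was -0.06 log2 on Transwell and -0.16 on the plate, beside -0.01 and -0.03 over all genes.

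**Figure D2:**
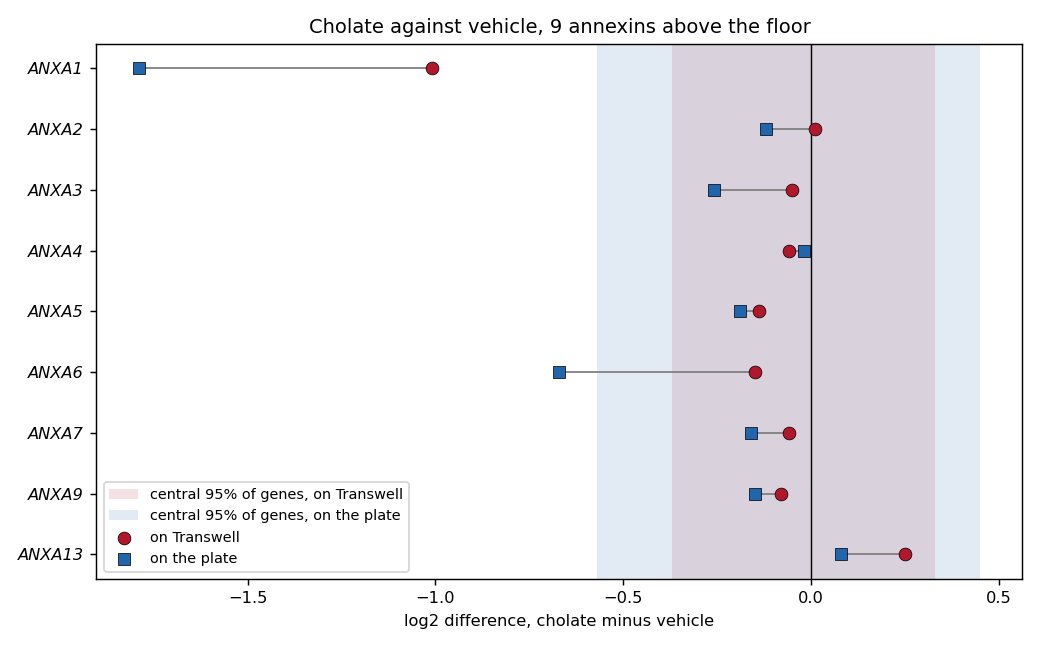
Log2 difference, cholate minus vehicle, for the 9 annexins above the floor, on Transwell (circles) and on the plate (squares), each point from 1 pair of pooled arrays. Shading gives the central 95% of 12900 genes for each support. ANXA1 lies at -1.01 and -1.79 and ANXA6 at -0.15 and -0.67, while both points of the other 7 lie inside the shading.

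Transwell was then set against plate, a contrast that the choice of the family did not use. The limma fit took the 4 arrays with support and treatment as additive terms, over all 19978 probe sets above the floor, 2-sided, with Benjamini-Hochberg adjustment. Its 1 residual degree of freedom is the disagreement between treatments, and the standard errors (SE) do not measure the spread between cultures. No annexin passed an adjusted p of 0.05, and neither did any probe set, so the share called was 0% and the smallest adjusted p was 0.0858. An unadjusted limma p under 0.05 was found for 2 of 9 annexins, ANXA9 and ANXA13, and for 4519 probe sets or 22.6%. Over the 12900 genes, 1 probe set each, it was found for 1697 higher and 1411 lower on Transwell.

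ANXA9 had the largest mean difference between supports among the 9 annexins. It read 9.05 on Transwell and 9.70 on the plate in cholate, and 9.13 on Transwell and 9.84 on the plate in vehicle. Both Transwell values were below both plate values. The mean difference was -0.68 log2 (1.60-fold lower on Transwell; SE 0.09, limma adjusted p = 0.108), with -0.65 in cholate and -0.71 in vehicle. Its adjusted p was 0.03 with the floor at the 60th percentile and 0.0446 with an intensity trend in the prior, and ranged from 0.03 to 0.198 over all settings. ANXA9 was the single annexin at least 1.5-fold lower on Transwell in both treatments, as were 1.84% of all genes, and 0 annexins were higher by that fold, as were 1.19% of all genes.

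ANXA13 went the other way. It read 8.39 on Transwell and 7.90 on the plate in cholate, and 8.14 on Transwell and 7.82 on the plate in vehicle. Both Transwell values were above both plate values, and the mean difference was 0.40 log2 (1.32-fold; SE 0.10, limma adjusted p = 0.155). ANXA6 had a mean difference of -0.44 log2 (SE 0.16, limma adjusted p = 0.222), made of -0.18 in cholate and -0.70 in vehicle. The vehicle difference uses the same high plate vehicle array as the cholate response of ANXA6 on the plate.

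ANXA1 had no common direction between supports. Transwell minus plate was 0.61 log2 in cholate (6.32 on Transwell and 5.71 on the plate) and -0.16 in vehicle (7.33 on Transwell and 7.49 on the plate), a mean of 0.22 (SE 0.22, limma adjusted p = 0.575). Both differences lay inside the central 95% of genes, -0.69 to 0.68 in cholate and -0.65 to 0.54 in vehicle. The vehicle arrays were nearer to each other than the cholate arrays. Put as a difference of cholate responses, Transwell minus plate, this is 0.77 log2 for ANXA1, which uses all 4 arrays and has no test.

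For the remaining 5 annexins the differences between supports were smaller. The mean difference was -0.17 for ANXA5, -0.11 for ANXA7, -0.07 for ANXA2 and ANXA3 and -0.06 for ANXA4, with SE of 0.09 to 0.10 and limma adjusted p of 0.337 to 0.727. Values below 0 in both treatments were found for 6 of 9 annexins (5 with median centring, 7 with quantile normalization or cyclic loess), against 33.2% of all genes. The median over the 9 annexins was -0.06 log2 in cholate and -0.16 in vehicle, beside 0.02 over all genes in each. Plate vehicle was the highest array for each of the 9 except ANXA13. It enters both the vehicle difference between supports and the cholate difference on the plate. The median of -0.16 for each is therefore not a separate observation.

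**Figure D3:**
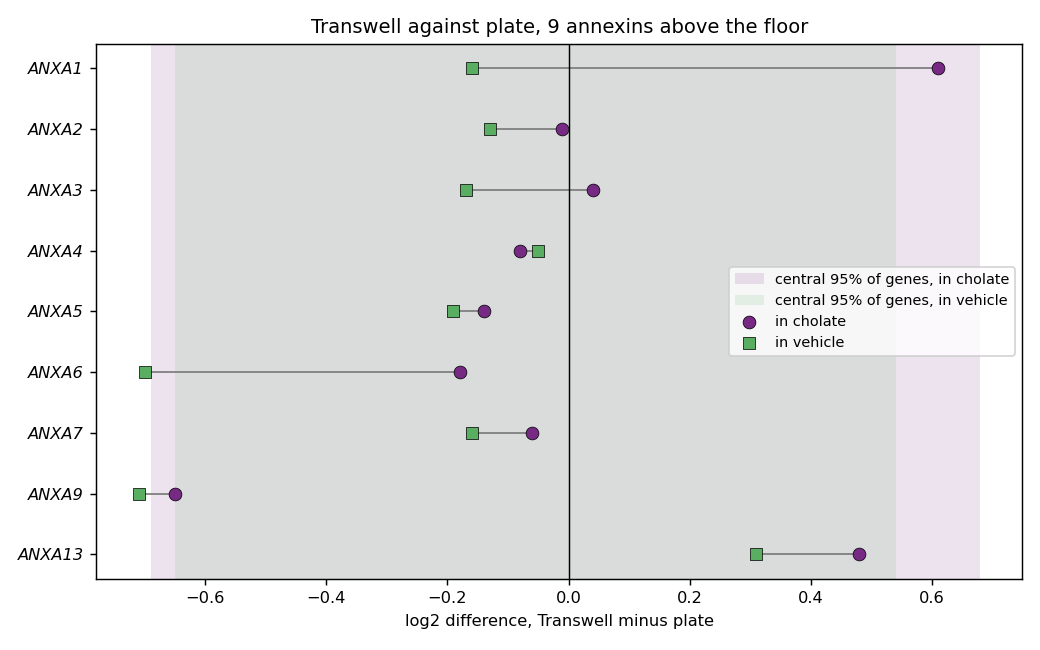
Log2 difference, Transwell minus plate, for the 9 annexins above the floor, in cholate (circles) and in vehicle (squares), each point from 1 pair of pooled arrays. Shading gives the central 95% of 12900 genes for each treatment. ANXA9 lies at -0.65 in cholate and -0.71 in vehicle, and ANXA13 at 0.48 and 0.31 in that order. ANXA1 lies at 0.61 in cholate and -0.16 in vehicle. In vehicle, ANXA9 and ANXA6 (-0.70) lie outside the shading for that treatment. All other points, with those of ANXA1 and ANXA13, lie inside theirs.

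The genes whose values followed ANXA1 most closely were sought by the root mean square difference of log2 values over the 4 arrays, after each gene's mean was subtracted. PTN, the secreted growth factor pleiotrophin, was nearest at 0.143. It read 5.96 in cholate and 6.84 in vehicle on Transwell, and 5.53 in cholate and 7.36 in vehicle on the plate. FABP7, a fatty acid binding protein, followed at 0.184, then ENPEP, a membrane aminopeptidase, at 0.241, the connexin gene GJA1 at 0.243 and DPPA3, a gene of germ cells and early embryos, at 0.253. All 5 were lower in cholate on both supports, with differences of -0.69 to -1.15 log2 on Transwell and -1.45 to -2.02 on the plate. That direction follows from ranking the genes by likeness to ANXA1 on these same arrays, and is no separate result. Unlike ANXA1, which stood at -0.16, they differed between supports in vehicle by -0.47 to -0.65. Likeness over 4 arrays, 1 per condition, is a description, and ranking by Pearson's r instead named none of the same 5 genes.

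**Figure D4:**
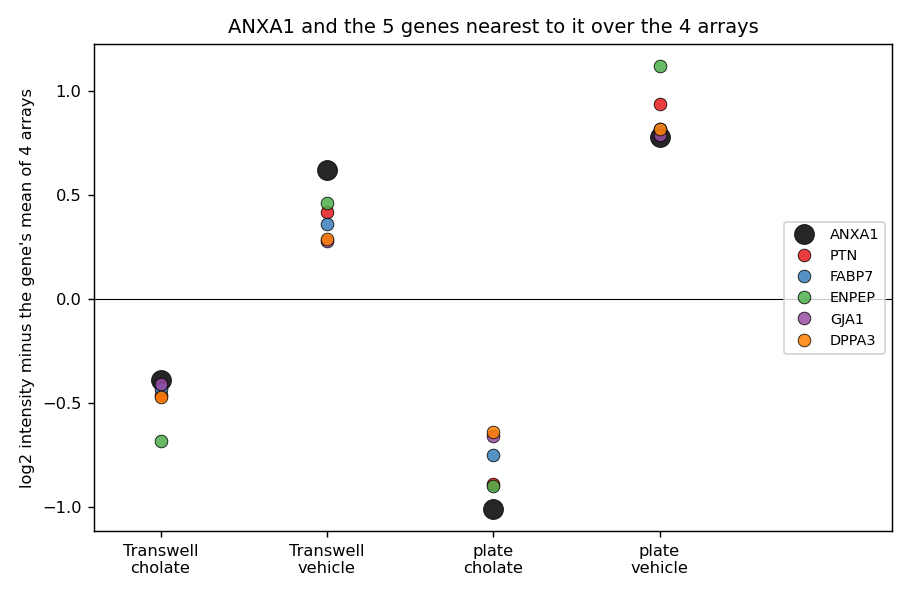
Log2 intensity of ANXA1 (large black points) and the 5 genes nearest to it, each minus its own mean over the 4 pooled arrays. All 6 genes lie below their mean on both cholate arrays and above it on both vehicle arrays, which follows from the choice by likeness. ANXA1 stands at -1.01 in plate cholate and 0.62 in Transwell vehicle, outside the other 5 on both. It also lies just outside them in Transwell cholate (-0.39, GJA1 at -0.41) and plate vehicle (0.78, GJA1 at 0.79).

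Partners and functional relatives of the annexins were described through 7 lists with 98 measured genes, 75 of them above the floor. S100A10, the partner of ANXA2, read 12.80 in cholate and 12.88 in vehicle on Transwell, and 12.94 in cholate and 12.99 in vehicle on the plate. S100A11, the partner of ANXA1, read 9.48 and 9.79 on Transwell and 9.81 and 10.02 on the plate, cholate before vehicle, and S100A6, which binds several annexins, stayed between 8.52 and 8.65. The cholate difference of S100A11 was -0.31 on Transwell and -0.21 on the plate, smaller in size than that of ANXA1 on either support. The ANXA2 pseudogene ANXA2P2 read 12.22 to 12.38, with cholate differences of -0.03 on Transwell and -0.13 on the plate, beside 0.01 and -0.12 for ANXA2. ANXA2P1 stood at 0.05 and -0.35 and ANXA2P3 at 0.36 and -0.09, the last with a Transwell vehicle value (4.72) under the floor. These copies are close to ANXA2 in sequence, so signal from ANXA2 and its copies may be shared between their probe sets.

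The receptors through which ANXA1 signals were near background. FPR1, FPR2 and FPR3 read 3.25 to 3.83 and PLA2G4A, the cytosolic phospholipase that ANXA1 is known to inhibit, 3.24 to 3.64, all under the floor on all 4 arrays. Downstream of that enzyme, the prostaglandin E synthase gene PTGES read 6.87 in cholate and 7.54 in vehicle on Transwell, and 7.17 in cholate and 7.95 in vehicle on the plate. Its differences of -0.68 and -0.78 log2 made it the single gene of the 75 at least 1.5-fold lower on both supports, and 0 were higher by that fold, beside 0.504% and 0.178% of all genes. ALOX5AP, which presents arachidonate to 5-lipoxygenase, differed more by support. It read 6.47 on Transwell and 5.61 on the plate in cholate, and 6.54 on Transwell and 5.92 on the plate in vehicle, a mean of 0.74 log2 (SE 0.10, limma adjusted p = 0.110).

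Over all 12900 genes, 34.7% were below 0 in cholate on both supports and 26.1% above, which is the background for the counts that follow. Those counts of signs per list were not repeated under other scaling. Among plasma membrane repair genes, 18 above the floor, 12 were below 0 in cholate on both supports and 2 above, with a median of -0.08 on Transwell and -0.06 on the plate. CAV1, the main protein of caveolae, stood at -0.51 on Transwell and -0.73 on the plate, and its coat partner CAVIN1 at -0.49 and -0.34. For Transwell minus plate, CAVIN1 had a mean of -0.53 (SE 0.09, limma adjusted p = 0.123) and the calpain gene CAPN2 one of -0.47 (SE 0.11, limma adjusted p = 0.144). Of the S100 list, 11 above the floor, 6 were below 0 in cholate on both supports and 1 above. S100A4, a calcium sensor linked to cell motility, stood at -0.24 and -0.43, and S100G, the intestinal calcium buffer calbindin-D9k, at -0.01 and -0.73. S100G read 6.89 on Transwell and 5.48 on the plate in cholate, and 6.90 on Transwell and 6.21 on the plate in vehicle, a mean of 1.05 (SE 0.20, limma adjusted p = 0.130). S100A1 read 4.78 and 5.57 in cholate and 4.69 and 5.65 in vehicle, Transwell before plate, and both Transwell values were under the floor. Its mean difference between supports was -0.87 (SE 0.10, limma adjusted p = 0.0962).

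In the apical trafficking list, 15 above the floor, 8 genes were below 0 in cholate on both supports and 1 above, beside 34.7% and 26.1% of all genes. The membrane fusion genes SNAP23 (-0.22 on Transwell and -0.42 on the plate) and STX3 (-0.15 and -0.32) had the largest mean. LGALS4, a galectin of apical delivery, read 8.06 on Transwell and 6.88 on the plate in cholate, and 8.04 on Transwell and 6.90 on the plate in vehicle. Its mean difference was 1.16 log2 (2.23-fold; SE 0.09) with a limma adjusted p of 0.0858, the smallest value, which 126 probe sets shared, and the brush border myosin gene MYO1A stood at 0.54 (SE 0.10, limma adjusted p = 0.123). The plasminogen list, 8 above the floor, had 2 genes below 0 in cholate on both supports and 3 above, with PLAT, tissue plasminogen activator, at 0.39 and 0.06 and a Transwell vehicle value under the floor. Between supports, the serine protease gene TMPRSS4 stood at 0.69 (SE 0.10, limma adjusted p = 0.111) and the antiplasmin gene SERPINF2 at -0.64 (SE 0.10, limma adjusted p = 0.113). The copine and C2 domain list, 11 above the floor, had 2 genes below 0 in cholate on both supports and 4 above. SYTL2 stood at -0.32 on Transwell and -0.10 on the plate and CPNE7 at 0.16 and 0.11, and between supports SYTL5 at a mean of 0.40 and CPNE8 at -0.30. No gene of the 7 lists passed limma over all probe sets. An unadjusted limma p under 0.05 was found for 21 of the 75 (28.0%), beside 22.6% of all probe sets. Over the 12900 genes, 1 probe set each, it was found for 1697 higher and 1411 lower on Transwell.

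**Figure D5:**
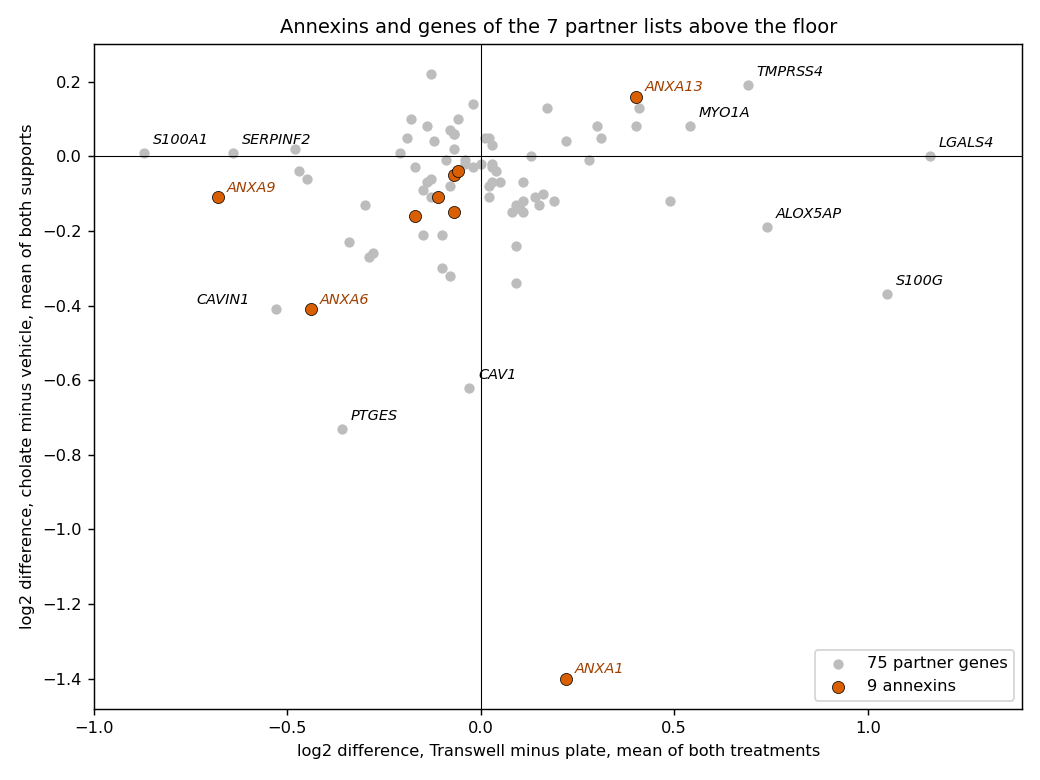
Mean log2 difference of cholate minus vehicle over both supports against the mean of Transwell minus plate over both treatments, for 9 annexins (orange) and 75 genes of the partner lists (grey), 1 point per gene. ANXA1 lies at -1.40 for cholate, below PTGES at -0.73 and CAV1 at -0.62, and LGALS4 and S100G lie farthest to the right at 1.16 and 1.05.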

How the data were processed

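The authors deposited log2 intensities, 1 for each probe set and array, after RMA per the submitters' processing notes. The sources used here do not give the software or the probe set definition. RMA forces similar distributions on the arrays and compresses differences near background. Genes were named from the platform annotation, and all 10 annexin symbols were found in the RefSeq table of GRCh38.p14. Of several probe sets of a gene, the one with the highest mean stood for it. No position is given for probe sets, whose build was not stated.

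Differences are log2, cholate minus vehicle and Transwell minus plate, and 1.5-fold was the threshold for counts. limma 3.58.1 in R 4.3.3 (lmFit, eBayes, prior of 2.83 degrees of freedom) tested support with treatment as a covariate, with the script tested on simulated data. Motif searches and tables used Python 3.11.15. Alternatives changed scaling, floor, fold, covariate and prior. The members and lists were chosen with earlier results of these data known. All 10 listed annexins are named. From each other list come the 2 genes largest in mean cholate and the 2 in mean support difference. Partners of ANXA1 and ANXA2 were added. No batch is labelled.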

Additional observations from a re-analysis of the deposited data

Results flagged for a closer look

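ANXA1 differed between supports in opposite directions by treatment: Transwell minus plate was 0.61 log2 in cholate and -0.16 in vehicle. Both lay inside the central 95% of genes, -0.69 to 0.68 in cholate and -0.65 to 0.54 in vehicle. The cholate difference rests on the low ANXA1 values in cholate for which the family was chosen. ANXA1 was the single annexin with opposite signs by at least 0.1 log2 on each side. How many of all 12900 genes did so was not counted. Over all 12900 genes, Transwell minus plate was below 0 in both treatments for 4287 and above 0 in both for 5098. Cholate minus vehicle was below 0 on both supports for 4481 and above 0 on both for 3361. The rest had opposite signs or a value of 0, so nothing is read from the signs of the genes named here. Among the 75 partner genes, Transwell minus plate in cholate and in vehicle was -0.32 and 0.25 for MAL, -0.21 and 0.12 for S100P, 0.16 and -0.27 for ALOX15, 0.20 and -0.16 for CPNE3, 0.19 and -0.12 for VAMP7, and 0.20 and -0.24 for the pseudogene ANXA2P3. Cholate minus vehicle on Transwell and on the plate also had opposite signs, at -0.30 and 0.27 for MAL, -0.17 and 0.16 for S100P, 0.31 and -0.11 for ALOX15, 0.11 and -0.20 for VAMP7, 0.16 and -0.12 for PLA2G2A and -0.17 and 0.11 for PLAU. The Transwell vehicle values of ALOX15 and ANXA2P3 were under the floor. Each value comes from 1 pair of arrays, and the genes of this paragraph that the naming rule does not cover were chosen after their values were seen. None of these differences between supports or treatments was tested.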

How the results depend on the processing

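Scaling (median centring, quantile normalization or cyclic loess) turned no annexin difference of at least 1.5-fold round and left the counts of annexins and partner genes past that fold within 1.5 times. At a 2-fold threshold 1 annexin (ANXA1) was lower on the plate, and 0 partner genes were lower on both supports. With the floor at the 60th percentile, limma called 353 probe sets higher and 454 lower on Transwell, among them 1 annexin (ANXA9) and 6 partner genes (LGALS4, TMPRSS4, SERPINF2, CAVIN1, MYO1A and PLAUR). With an intensity trend it called 105 higher and 188 lower, among them 1 annexin (ANXA9) and 2 partner genes (LGALS4 and TMPRSS4). The cause was not tested. Ranking by Pearson's r shared 0 of the 5 genes nearest to ANXA1. Taking the median over a gene's probe sets left every annexin as it was, since each has 1. With 1 array per condition there was no replicate number to block on and no replicate to leave out. The treatment term already pairs Transwell with plate within each treatment, and without that term limma also called 0 annexins.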

Other observations

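Some relatives outside the naming rule, chosen after their values were seen, were lower both in cholate and on Transwell. DYSF, the ferlin that works with annexins in membrane repair, stood at -0.33 on Transwell and -0.20 on the plate for cholate, and at -0.35 in cholate and -0.22 in vehicle for Transwell minus plate. AHNAK, a large scaffold that binds the ANXA2 and S100A10 complex, stood at -0.28 and -0.18 for cholate and at -0.39 and -0.29 for support. Every one of these values lay inside the central 95% of genes for its pair of arrays. Plate vehicle, the highest array for both genes, enters both kinds of difference. Neither gene passed limma for support (adjusted p = 0.199 for DYSF and 0.165 for AHNAK).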
